A study of Homo sapiens with 12 samples.

Results

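The 10 genes described here are the fibroblast growth factor (FGF) receptors FGFR1, FGFR2, FGFR3, FGFR4 and FGFRL1 and the ligands FGF1, FGF2, FGF5, FGF7 and FGF18. They were taken by name from the 59248 rows of the deposited gene table, and each name matched 1 Ensembl identifier. The libraries came from SJSA-1, an osteosarcoma cell line of human origin, after lentiviral transduction and puromycin selection. The shNC group of 6 libraries expressed a nontargeting scramble shRNA, and the sh1 group of 6 expressed 1 shRNA against RUNX2, a transcription factor of the osteoblast lineage. All cells of both groups also carried the EGFP and puromycin resistance genes of the vector. A single shRNA was compared with a single control, in transduced populations.

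FGFs are secreted proteins that bind receptor tyrosine kinases at the cell surface together with heparan sulfate, a sulfated sugar chain on proteoglycans. The activated receptor phosphorylates the docking protein FRS2, which recruits GRB2 and SOS and so starts the RAS and ERK cascade. In bone, FGF signalling acts on the proliferation and differentiation of osteoblasts and chondrocytes, and activating mutations of FGFR1, FGFR2 and FGFR3 cause disorders of skeletal growth.

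The total gene count ranged from 15328312 to 19992974 in shNC and from 11239638 to 16346022 in sh1, where sh1 replicate 3 was the lowest and the other sh1 libraries held at least 14689309. The labels name no batch. Whether the libraries of a group came from separate cultures is not stated in the labels or methods, and each p-value therefore reflects library-to-library spread that may be technical. The targeted RUNX2 transcript had a level of 4.82 ± 0.567 FPKM in the shNC group and 3.01 ± 0.233 FPKM in the sh1 group (SD, n = 6 each), without overlap. The 11 osteoblast lineage markers summed to 288 to 341 FPKM in shNC and 431 to 560 FPKM in sh1, without overlap. Of the 7 tested, 3 were higher in sh1, and RUNX2 was the 1 lower. Those higher were SPARC (297 and 475 FPKM on average, adjusted p = 5.6e-07 from edgeR), COL1A1 (0.590 and 1.66 FPKM, adjusted p = 2.3e-05 from edgeR) and CDH11 (5.18 and 10.01 FPKM, adjusted p = 3.2e-06 from edgeR). COL1A1 and CDH11 are named after their values were seen. IBSP had no count in any library and SP7 had at most 1. Of the other marker lists, VIM stood for mesenchymal cells (266 FPKM in shNC) and their 6 markers summed to 402 to 441 FPKM in shNC and 353 to 415 FPKM in sh1. The 5 epithelial markers summed to 79.2 to 93.5 FPKM in shNC and 86.8 to 115 FPKM in sh1, led by KRT18 (49.5 FPKM in shNC), while CDH1, a defining epithelial gene, had no count. The summed level of 5 leukocyte markers was 0.0894 to 0.250 FPKM in shNC and 0.0292 to 0.264 FPKM in sh1. The 5 endothelial markers summed to 0.649 to 1.10 FPKM in shNC and 0.599 to 0.994 FPKM in sh1. The 5 keratinocyte markers summed to 4.52 to 8.89 FPKM in shNC and 2.79 to 5.11 FPKM in sh1, mostly from KRT10. Genes called in these other lists are named after their values were seen, with log2 fold change and adjusted p from edgeR. Higher in sh1 were KRT8 (0.48, 0.00021), PDGFRB (1.11, 0.00049) and ENG (0.21, 0.03). Lower were CD44 (-0.30, 0.00018) and KDR (-1.11, 0.007). KRT18 was not called (0.05, 0.55). The part of these marker levels in the results was not tested.

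In sh1, transcripts of the receptors FGFR1 and FGFR3 were higher and those of the ligands FGF2 and FGF5 were lower than in shNC. Of the 10 genes, 7 had enough counts to be tested, and 4 of these passed the test, 2 in each direction. Over all 16489 genes tested, 26.1% passed, 12.8% higher and 13.3% lower in sh1. The test was edgeR's quasi-likelihood test on the counts, with adjusted p-values over all genes tested and a threshold of 0.05. Fold changes are sh1 over shNC throughout, and levels are in FPKM (counts scaled to gene length and to the total of the library). The 6 sh1 and the 6 shNC libraries did not overlap in FGFR1, FGFR3 and FGF2, against 11.9% of all genes tested. Since the RNA came from bulk cultures, fewer cells expressing a gene and less RNA of it per cell cannot be told apart.

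**Figure D1:**
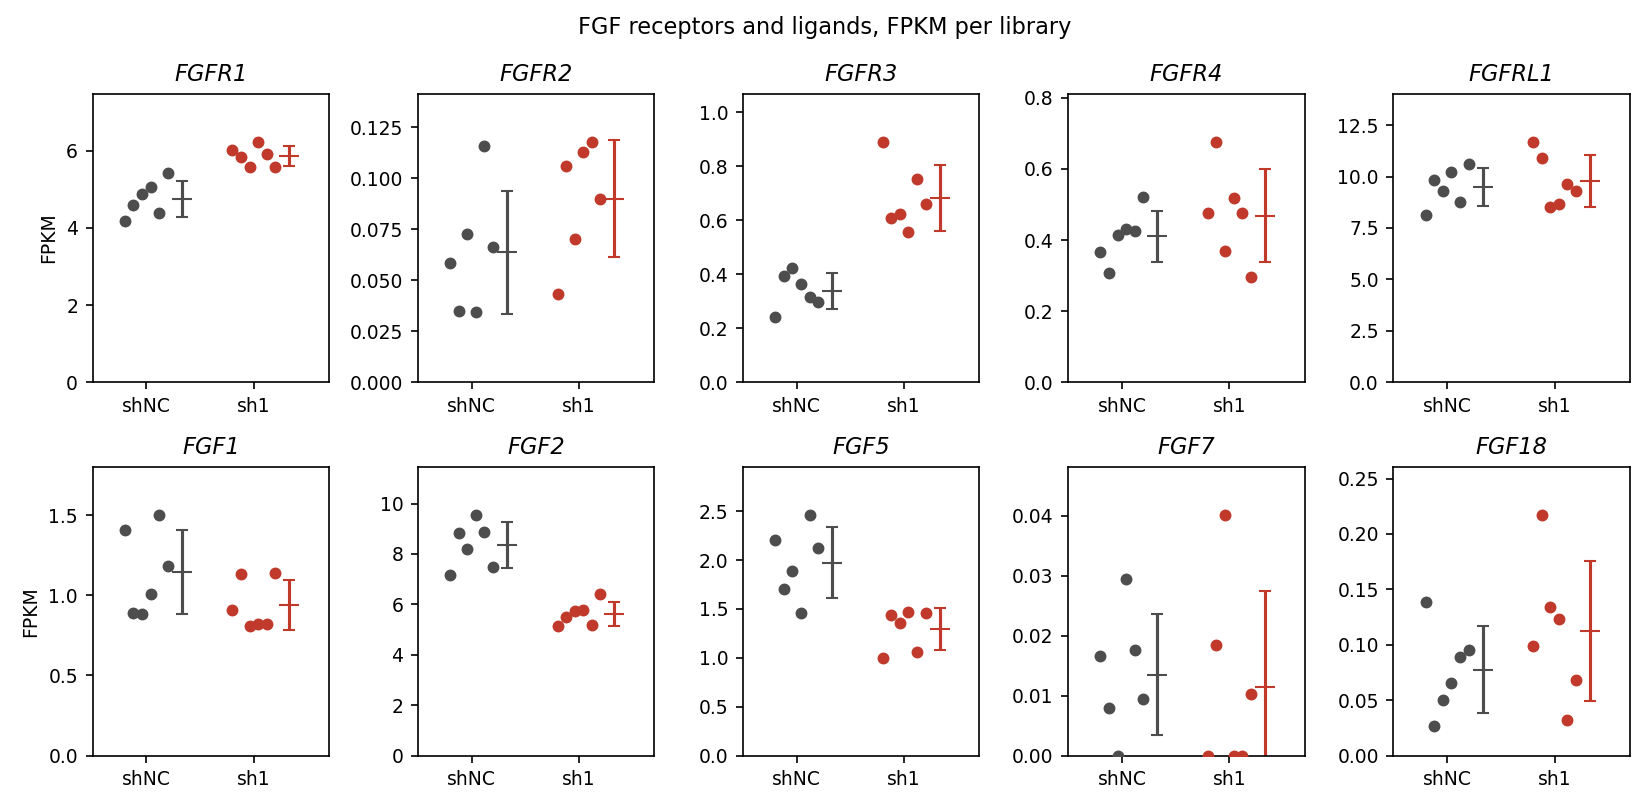
FPKM of each FGF receptor and ligand gene in each of the 6 shNC (grey) and 6 sh1 (red) libraries, with the mean and SD of each group beside the points and an axis of its own, from 0, for each gene. For FGFR1 and FGFR3 all red points lie above all grey points, and for FGF2 all lie below, while FGF7 stays at or below 0.0401 FPKM in all libraries.

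FGFR1 (ENSG00000077782, chromosome 8 from 38400215 to 38468834, minus strand, GRCh38) encodes the receptor with the highest level of the signalling receptors in these cells. Its lowest, median and highest values were 4.17, 4.74 and 5.43 FPKM in shNC and 5.57, 5.89 and 6.24 FPKM in sh1. Every sh1 library thus lay above every shNC library, by a small margin. The log2 fold change was 0.29 (standard error 0.058, 95% interval 0.17 to 0.41), which is 122% of the shNC level (adjusted p = 0.0012 from edgeR). FGFR1 overlaps LETM2 on the opposite strand in 138 of its 17201 annotated exon bases, and LETM2 was lower in sh1 (log2 fold change -0.40, adjusted p = 0.0030 from edgeR). It also shares 387 exon bases with the antisense RNA gene ENSG00000255201, which had 5 to 18 counts per library, and spans the pseudogene RPS20P22 with 6 to 22 counts. Strand was not kept in the library preparation, and in these shared bases the reads of antisense partners cannot be told apart.

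FGFR3 (ENSG00000068078, chromosome 4 from 1793293 to 1808872, plus strand, GRCh38), known as a brake on the growth of cartilage, showed the larger relative difference at a far lower level. Its lowest, median and highest values were 0.240, 0.339 and 0.423 FPKM in shNC and 0.555, 0.642 and 0.892 FPKM in sh1. The groups did not overlap, and sh1 replicate 1 was the highest. These levels rest on 21 to 41 counts per library in shNC and 34 to 66 in sh1. In sh1 over shNC this was a log2 fold change of 0.99 (standard error 0.16, 95% interval 0.64 to 1.33), which is 198% of the shNC level (adjusted p = 0.00025 from edgeR).

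FGFR4 and FGFR2 stayed low in both groups. FGFR4 (ENSG00000160867, chromosome 5 from 177086905 to 177098144, plus strand) ranged from 0.306 to 0.522 FPKM in shNC (median 0.420) and from 0.296 to 0.677 FPKM in sh1 (median 0.476), so that the sh1 range enclosed the shNC range. Its log2 fold change was 0.19, with a 95% interval from -0.21 to 0.59 (adjusted p = 0.49 from edgeR). FGFR2 (ENSG00000066468, chromosome 10 from 121478332 to 121598458, minus strand), a regulator of osteoblast progenitors, had 4 to 15 counts per library in shNC and 5 to 14 in sh1 and did not pass the filter on low counts. Tested without the filter, it had an adjusted p of 0.45 from edgeR, and a difference was not detectable at this depth.

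FGFRL1 (ENSG00000127418, chromosome 4 from 1009936 to 1026898, plus strand) encodes a receptor that binds FGFs but lacks the tyrosine kinase domain. It had the highest mean level of the 10 genes. Its lowest, median and highest values were 8.12, 9.56 and 10.6 FPKM in shNC and 8.50, 9.45 and 11.7 FPKM in sh1, and both ranges overlapped widely. On the log2 scale the difference was 0.03 (95% interval -0.14 to 0.20, adjusted p = 0.80 from edgeR), and its sign turned when sh1 replicate 1 (-0.01) or shNC replicate 1 (-0.00013) was left out.

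FGF2 (ENSG00000138685, chromosome 4 from 122826682 to 122898236, plus strand), the basic FGF that promotes growth of many mesenchymal cells, was the leading ligand. Its lowest, median and highest values were 7.17, 8.51 and 9.54 FPKM in shNC and 5.15, 5.62 and 6.41 FPKM in sh1. Every sh1 library lay below every shNC library. The log2 fold change was -0.59 (standard error 0.072, 95% interval -0.74 to -0.43), which leaves 66.6% of the shNC level (adjusted p = 1.3e-05 from edgeR). FGF2 stood at rank 267 of the 16489 genes by p-value. It overlaps NUDT6 on the opposite strand in 804 of its 6801 annotated exon bases. NUDT6 had 34 to 78 counts per library, against 437 to 1132 for FGF2, and a log2 fold change of 0.06 (adjusted p = 0.82 from edgeR), whose sign turned without sh1 replicate 6 (-0.00061) or shNC replicate 6 (-0.02).

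FGF5 (ENSG00000138675, chromosome 4 from 80266639 to 80336680, plus strand), a ligand known for ending the growth phase of hair, was lower in sh1 as well. Its lowest, median and highest values were 1.46, 2.01 and 2.46 FPKM in shNC and 0.994, 1.40 and 1.47 FPKM in sh1. The groups overlapped through shNC replicate 4, the lowest shNC library, and 4 of 6 sh1 libraries lay below every shNC library in TMM-normalized CPM. The log2 fold change was -0.62 (standard error 0.14, 95% interval -0.91 to -0.34), which leaves 64.9% of the shNC level (adjusted p = 0.0026 from edgeR). FGF5 shares 136 exon bases with CFAP299 on the same strand, a gene with at most 3 counts in a library.

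FGF1 (ENSG00000113578, chromosome 5 from 142592178 to 142698070, minus strand), the acidic FGF that binds all FGF receptors, did not pass the test. Its lowest, median and highest values were 0.882, 1.10 and 1.502 FPKM in shNC and 0.810, 0.866 and 1.14 FPKM in sh1. Its log2 fold change was -0.30, with a 95% interval from -0.63 to 0.03 (adjusted p = 0.17 from edgeR), and 3 of 6 sh1 libraries lay below every shNC library. SPRY4-AS1 on the opposite strand spans part of FGF1 without shared exon bases and had 12 to 31 counts per library.

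FGF7 and FGF18 were near the limit of detection. FGF7 (ENSG00000140285, chromosome 15 from 49423237 to 49488775, plus strand), the keratinocyte growth factor, had 9 counts in the 6 shNC libraries and 6 in the 6 sh1 libraries together, and none in 4 of the 12 libraries. The annotation holds 8 pseudogene copies of FGF7, whose summed counts were 1 to 8 per library, and reads may be split between them. FAM227B, which surrounds FGF7 on the opposite strand without shared exon bases, had 61 to 122 counts per library. FGF18 (ENSG00000156427, chromosome 5 from 171419647 to 171457626, plus strand), a ligand of bone and cartilage development, had 1 to 5 counts per library in shNC and 1 to 7 in sh1. Neither passed the filter on low counts, and without it the adjusted p from edgeR was 0.86 for FGF7 and 0.61 for FGF18.

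**Figure D2:**
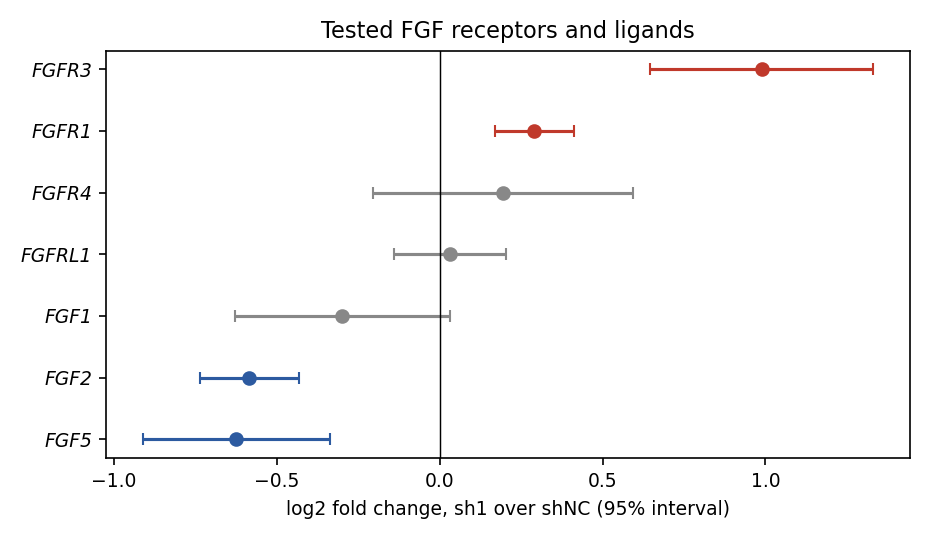
Log2 fold change, sh1 over shNC, with its 95% interval for the 7 tested FGF receptors and ligands. Red marks genes higher and blue genes lower in sh1 at an adjusted p under 0.05, and grey marks genes that did not pass; FGFR3 lies at 0.99 and FGF5 at -0.62, the ends of the range.

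Because RUNX2 was the targeted gene, the promoters of FGFR3, FGF2 and FGF5, genes called here, were searched for the core letters of RUNX binding sites, TGTGGT and TGCGGT, on both strands. The search used 18 RefSeq windows of GRCh38.p14, from 250 bases before to 50 after a start site, for 9 of the 10 genes. The windows of these 9 genes were taken by gene symbol. FGFR1, which was also called, was left out of the selection, and its promoter was therefore not examined. Neither motif was in the single window of FGFR3 or of FGF2 or in both windows of FGF5. A motif was in 3 of the 18 windows, belonging to FGF1 and FGFR2, and in 19.6% of all 35116 windows (13.1% for TGTGGT and 7.29% for TGCGGT). The letters say nothing about binding outside these windows. Upstream bases are shown up to the first base annotated as an untranslated region of the gene. This cuts the stretches of FGF2 and FGF1 short, while the search covered whole windows. For called genes they lie at chr4:1793043-1793292 (FGFR3), chr4:122826581-122826681 (FGF2) and chr4:80266338-80266587 (FGF5), plus strand. For FGF1, minus strand, they lie at chr5:142644302-142644489, where capitals mark TGTGGT, read on the printed strand 197 bases before the start.
FGFR3: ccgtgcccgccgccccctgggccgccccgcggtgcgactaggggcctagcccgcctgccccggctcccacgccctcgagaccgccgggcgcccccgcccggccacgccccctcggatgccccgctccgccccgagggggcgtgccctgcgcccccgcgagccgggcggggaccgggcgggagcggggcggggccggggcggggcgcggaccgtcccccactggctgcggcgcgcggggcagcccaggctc
FGF2: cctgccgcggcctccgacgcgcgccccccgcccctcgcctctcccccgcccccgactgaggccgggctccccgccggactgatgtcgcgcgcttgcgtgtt
FGF5: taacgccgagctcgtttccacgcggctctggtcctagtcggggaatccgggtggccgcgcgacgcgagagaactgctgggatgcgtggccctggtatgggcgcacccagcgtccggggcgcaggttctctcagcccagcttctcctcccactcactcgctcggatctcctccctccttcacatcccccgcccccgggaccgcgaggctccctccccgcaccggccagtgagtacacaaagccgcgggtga
FGF1: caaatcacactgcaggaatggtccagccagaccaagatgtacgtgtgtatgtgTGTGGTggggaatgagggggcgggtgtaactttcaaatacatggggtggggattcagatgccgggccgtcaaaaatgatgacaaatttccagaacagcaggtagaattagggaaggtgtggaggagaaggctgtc

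In the order of mean FPKM in shNC, FGFRL1 was followed by FGF2, FGFR1, FGF5, FGF1, FGFR4, FGFR3, FGF18, FGFR2 and FGF7. In sh1, FGFR1 stood before FGF2 and FGFR3 before FGFR4. Ranges of neighbours overlapped in shNC for FGFRL1 and FGF2, FGF5 and FGF1, FGFR4 and FGFR3, and FGF18 and FGFR2. In sh1 they overlapped for FGFR1 and FGF2, FGF5 and FGF1, FGF1 and FGFR3, FGFR3 and FGFR4, and FGF18 and FGFR2. By the mean FPKM over all 12 libraries of both groups, FGFRL1 exceeded 70.5% of the genes tested, FGF2 62.4%, FGFR1 55.9%, FGF5 30.5%, FGF1 22.1%, FGFR3 11.7% and FGFR4 9.99%. FGFR3 stands above FGFR4 there through its sh1 values, since its shNC mean was the lower of the pair.

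FGF2 exceeded FGFR1 in FPKM in 6 of 6 shNC libraries and in 2 of 6 sh1 libraries. The ratio of FGF2 to FGFR1 was 1.38 to 2.03 in shNC (median 1.80) and 0.856 to 1.15 in sh1 (median 0.932), with no overlap. The 5 ligands summed to 10.9 to 13.0 FPKM in shNC and 7.09 to 9.09 FPKM in sh1, and FGF2 made up 65.6% to 78.8% of this sum in shNC and 66.2% to 73.0% in sh1. The 4 signalling receptors summed to 4.84 to 6.32 FPKM in shNC and 6.62 to 7.43 FPKM in sh1. FGFR1 made up 83.7% to 86.3% of the receptor sum in shNC and 80.8% to 84.2% in sh1, and FGFR3 4.73% to 7.35% and 7.47% to 12%. These sums and shares restate the values of the genes in them and were not tested.

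**Figure D3:**
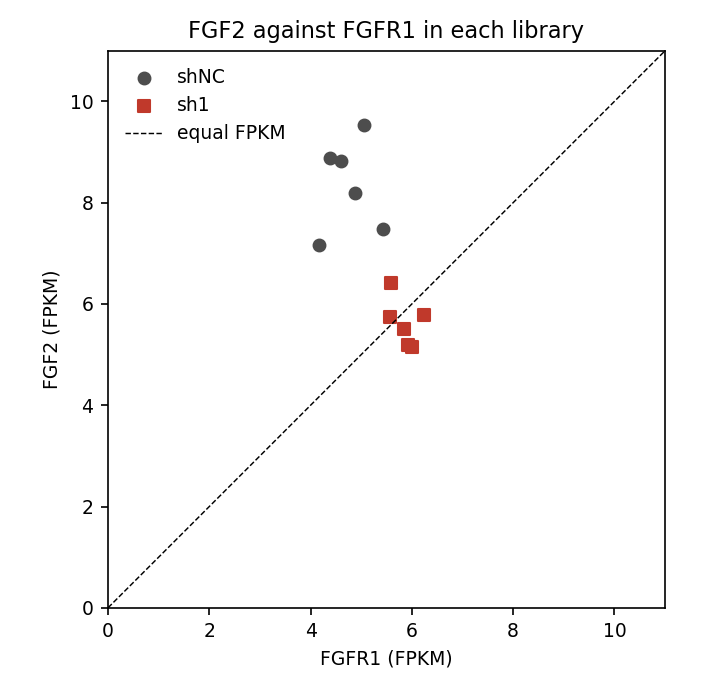
FPKM of FGF2 (vertical axis) against FPKM of FGFR1 (horizontal axis) in each shNC library (grey circles) and sh1 library (red squares), with a dashed line of equal FPKM. All 6 shNC libraries lie above the line, and the 6 sh1 libraries lie close to it, 2 above and 4 below.

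Without sh1 replicate 3, the library with the lowest total, the log2 fold changes were 0.32 for FGFR1, 1.02 for FGFR3, -0.58 for FGF2 and -0.63 for FGF5, with adjusted p-values from edgeR of 0.0011, 0.00032, 3.8e-05 and 0.0044. Over the 12 libraries, the genes of 12585 compared whose log2 CPM correlated most with FGFR1 were TMEM59L (Pearson r = 0.961) and EFNB1 (0.956). For FGF2 they were FRG1GP (0.972) and AFF3 (0.964), and for FGFRL1 COASY (0.960) and MAP2K2 (0.953). The points share the 2 groups and the library totals, and these values are a description.

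The other genes of FGF signalling were read from lists of ligands, carriers, proteoglycans, adaptors and targets. Of 91 such genes, 66 were tested, of which 12 were higher and 15 lower in sh1, with a median log2 fold change of 0.01 against -0.0035 over all genes tested. Over all genes tested, 12.8% were higher and 13.3% lower, 26.1% in all, and the counts of each list are to be read beside these shares. None of the 13 other secreted FGF ligands passed the filter on low counts. The highest of them, the metabolic hormone FGF21, had 2 to 9 counts per library in shNC and 1 to 12 in sh1. Of 4 intracellular FGF homologous factors, which bind sodium channels, 3 were tested and none passed, and FGF12 was at 0.897 FPKM in shNC and 0.888 FPKM in sh1.

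Among 7 tested co-receptors and carriers, 1 was higher and 3 were lower (median log2 fold change -0.16). ANOS1 (anosmin-1), a matrix protein that binds FGFR1 and heparan sulfate, fell from between 6.39 and 8.31 FPKM in shNC to between 3.67 and 4.11 FPKM in sh1, a log2 fold change of -0.99 (adjusted p = 3.2e-08 from edgeR). FLRT3, a membrane protein that binds FGF receptors, fell from between 0.591 and 0.938 FPKM to between 0.234 and 0.480 FPKM, a log2 fold change of -1.24 (adjusted p = 5.8e-05 from edgeR). Both had no overlap between the groups. The carrier FGFBP3, at 7 to 38 counts per library, had a log2 fold change of -0.64 (adjusted p = 0.019 from edgeR, but 0.055 without a filter on low counts and 0.081 in limma on log2(FPKM + 1) without a filter). CDH2 (N-cadherin), which can associate with FGFR1, rose from 34.3 ± 0.839 FPKM to 46.2 ± 2.66 FPKM (SD, n = 6 each).

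Of 10 tested heparan sulfate proteoglycans, 6 were higher and none was lower (median log2 fold change 0.33). Of this list 4 were higher under the replicate block, in limma on log2(FPKM + 1) without a filter, and without sh1 replicate 1 or shNC replicate 2 or 5, and none was lower in any alternative. The syndecan SDC2 rose from between 1.17 and 1.599 FPKM in shNC to between 3.20 and 3.78 FPKM in sh1, which on the log2 scale is a difference of 1.34 (adjusted p = 1.8e-08 by edgeR's quasi-likelihood test). The glypican GPC6 (log2 fold change 0.64) and perlecan, HSPG2 (0.77), rose without overlap of the groups, and GPC1 (0.38) rose with overlap. SDC4, the most abundant of the list, was at 94.8 ± 4.23 FPKM in shNC and 90.8 ± 5.13 FPKM in sh1 (SD, n = 6 each) and did not pass (adjusted p = 0.25 from edgeR).

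Of 13 tested enzymes of heparan sulfate synthesis and editing, 1 was higher and 3 were lower (median -0.13). The chain-building EXTL3 (log2 fold change -0.31) and EXT2 (-0.20) fell, and the sulfotransferase HS2ST1 (0.21) rose, each without overlap. The heparanase HPSE had a log2 fold change of -0.25 (adjusted p = 0.022 from edgeR) but did not pass without sh1 replicate 1, 4 or 5 or without shNC replicate 4 or 6 (adjusted p = 0.050 to 0.068), under the replicate block (0.051), without a filter on low counts (0.054), or in limma on log2(FPKM + 1) with and without a filter (0.051 and 0.093). NDST1, the most abundant of these enzymes, was at 30.6 FPKM in shNC and 32.4 FPKM in sh1.

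Of 14 receptor-proximal adaptors, 3 were higher and 2 lower (median 0.01). FRS2, the docking protein of the FGF receptors, rose from 7.91 ± 0.892 to 10.5 ± 0.833 FPKM (SD, n = 6 each), without overlap, or by 0.39 on the log2 scale (adjusted p = 0.00043 from edgeR). The adaptor SHC1 rose as well (0.35). NCK1, named after its value was seen, had a log2 fold change of 0.15 (adjusted p = 0.049 from edgeR). The exchange factor SOS2 fell (-0.27, adjusted p = 0.011 from edgeR, but 0.10 in limma on log2(FPKM + 1) without a filter). CRKL had a log2 fold change of -0.14 (adjusted p = 0.023 from edgeR) and did not pass without sh1 replicate 1, 2, 4, 5 or 6 or without shNC replicate 3 or 5 (adjusted p = 0.054 to 0.066), under the replicate block (0.079), or without a filter on low counts (0.12). The phosphatase PTPN11, the most abundant of the list, was at 77.0 FPKM in shNC and 71.7 FPKM in sh1 (adjusted p = 0.085 from edgeR).

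Of 11 tested feedback inhibitors, which restrain ERK signalling downstream of FGF and other receptors, 4 were lower and 1 was higher (median -0.05). The ERK phosphatase DUSP4 fell from 29.2 ± 3.07 to 16.0 ± 0.843 FPKM (SD, n = 6 each), without overlap (log2 fold change -0.89, adjusted p = 4.4e-08 from edgeR). SPRED2 (-0.27) fell without overlap. SPRY4 (-0.39) fell with overlap, since shNC replicate 1 lay below every sh1 library in FPKM. DUSP5 had a log2 fold change of -0.51 (adjusted p = 0.020 from edgeR) but did not pass without sh1 replicate 1 (adjusted p = 0.057) or 6 (adjusted p = 0.056), nor in limma with a filter on low counts (adjusted p = 0.066 and 0.067 with the 2 pseudocounts). SPRY3 (0.60) rose, at 0.286 to 0.602 FPKM over all libraries. Without sh1 replicate 1 or 3, 2 genes of this list were higher, and without shNC replicate 3 or 4, 3 genes were higher. In limma on log2(FPKM + 1) without a filter, none was higher and 2 were lower, since SPRY3 (adjusted p = 0.059), SPRY4 (0.11) and DUSP5 (0.19) did not pass there.

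Of 8 transcription factors and cell cycle genes induced by FGF, 3 were lower and none was higher (median 0.01), with 1 higher when shNC replicate 4 was left out. Cyclin D1, CCND1, fell from 139 ± 13.0 to 96.6 ± 10.6 FPKM (SD, n = 6 each), without overlap (log2 fold change -0.55, adjusted p = 3.6e-05 from edgeR). ETV4, an ETS factor whose transcription follows FGF signalling in many tissues, fell without overlap (-0.49, adjusted p = 0.00020 from edgeR), and its relative ETV5 fell with overlap (-0.22, adjusted p = 0.0094 from edgeR, but 0.094 in limma on log2(FPKM + 1) without a filter). FOSL1, an AP-1 subunit at 131 FPKM in shNC and 139 FPKM in sh1, did not pass. ERK feedback genes and these factors respond to other receptors as well.

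**Figure D4:**
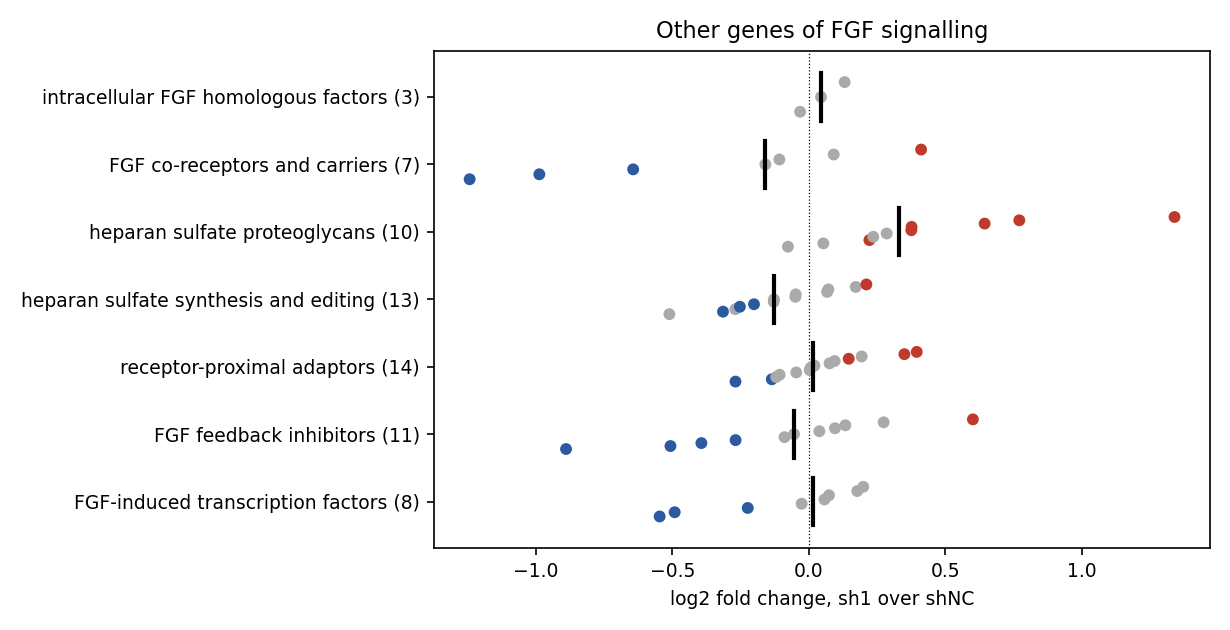
Differences between sh1 and shNC, as log2 fold changes on the horizontal axis, for the tested genes in 7 lists of FGF signalling genes, with the number tested in brackets and a black line at the median. Red points were higher and blue points lower at an adjusted p under 0.05, and grey points did not pass; heparan sulfate proteoglycans have their median at 0.33, with SDC2 at 1.34.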

How the data were processed

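The authors trimmed the read pairs, mapped them with HISAT2 (GRCh38) and used featureCounts for gene counts. The deposited tables hold raw counts and FPKM values that the authors derived from them. Versions of HISAT2 and featureCounts are not stated. A further deposited table, the counts divided by DESeq2 size factors, was not used. All 59248 rows, 572 of them without an Ensembl identifier, entered the library totals printed here and those behind FPKM. For edgeR and TMM-normalized CPM, totals were taken again over the genes that passed the filter. Names, coordinates and exon bases came from GENCODE 44 (58207 identifiers matched), which need not be the annotation the authors counted with.

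The 12 libraries' counts entered glmQLFit and glmQLFTest of edgeR 4.0.16 (R 4.3.3) after filterByExpr and TMM scaling, with Benjamini-Hochberg adjustment over 16489 genes. Standard errors were derived from the F statistic, and 95% intervals use its degrees of freedom. The common biological coefficient of variation was 0.106. Alternatives were RLE and library-total scaling, other filters, DESeq2 1.42.0, limma 3.58.1 on log2 FPKM with a pseudocount of 1 or 0.1, a replicate block, and leaving out each library.

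The members and gene lists were chosen with earlier results of these data known. Named genes were the members, RUNX2, the most abundant gene and up to 4 called genes with the smallest p of each pathway list, genes overlapping a member with at least 10 counts on average, the most abundant marker of each type, and the 2 genes most correlated with each of 3 abundant members.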

Additional observations from a re-analysis of the deposited data

Results flagged for a closer look

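Single libraries that stood apart from the other 5 of their group were sought in 110 groups of values, by the gap to the nearest value relative to the whole range. Of these groups 3 held such a library, where 5.5 would arise by chance. The total count of sh1 replicate 3 was 11239638, against 14689309 to 16346022 in the other sh1 libraries. DUSP5 was at 144 TMM-normalized CPM in shNC replicate 1 and at 260 to 284 in the other shNC libraries. For KRT10, sh1 replicate 3 had 3.71 TMM-normalized CPM, below the 7.35 to 8.41 of the remaining sh1 libraries. None of these is a value of an FGF receptor or ligand gene.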

How the results depend on the processing

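Under all 21 alternatives, FGFR1 and FGFR3 were called higher and FGF2 and FGF5 lower, while FGFRL1, FGFR4 and FGF1 were not called. The log2 fold change ranged from 0.26 to 0.33 for FGFR1, from 0.33 to 1.07 for FGFR3, from -0.62 to -0.49 for FGF2 and from -0.69 to -0.37 for FGF5, where the values nearest 0 for FGFR3 and FGF5 came from limma on log2(FPKM + 1), a scale that understates changes of low genes. Over all genes, limma on log2(FPKM + 1) without a filter called 1375 lower (2194 by edgeR). Leaving out single libraries gave 1821 to 2438 genes higher and 1650 to 2208 lower. Of 54 genes examined by name, 38 had the same direction and call in every alternative. The sign turned only in genes that were not called, when 1 library was left out, with ranges of -0.0145 to 0.0788 for FGFRL1, -0.0718 to 0.0426 for FGF12, -0.0177 to 0.292 for ENSG00000255201, -0.0172 to 0.160 for NUDT6, -0.0196 to 0.033 for COASY and -0.00708 to 0.0623 for MAP2K2. Equal replicate numbers did not pair the libraries (correlations of deviations from -0.162 to 0.033), and the replicate block gave 1680 genes higher and 1701 lower and the same calls of FGF receptors and ligands. Counts of 15 for FGF7 and 36 for FGF18 over the 12 libraries limit what can be said of these ligands.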
